A study of Homo sapiens with 12 samples.

Results

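The 7 genes described here (ULK1, RB1CC1, BECN1, ATG14, ATG2A, ATG9A and WIPI2) act at the start of autophagy, and the data are the intervals that 6 lists of m6A peaks hold inside them. An interval was counted when it overlapped the genomic span of a gene by at least 1 bp on the same strand. The rule took no score or list into account. It found 39 of the 53502 intervals in the lists, and these 39 formed 13 of the 20742 regions obtained when overlapping intervals of different lists were joined. All 7 genes had at least 1 interval in at least 2 lists. All positions are on build hg19 and are counted from 1.

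The cells were H460, a long-established line from a human large cell carcinoma of the lung, wild-type by label. Per the labels the study had 12 libraries in 4 groups of 3: inputs and immunoprecipitates (IPs) of cells given 100 nM rapamycin for 24 h, and inputs and IPs of cells that received nothing. Rapamycin inhibits mTORC1 and served to switch on autophagy. The 6 lists are called A to F. The GEO record ties each of them to a library of untreated cells, whereas the names they were given carry con and the numbers 1 to 3 for A, B and C, and rapamycin and the numbers 4 to 6 for D, E and F. An IP library is recorded for lists B, D and F only, whereas A, C and E are each placed with an input library. All 6 are read here as lists of m6A peaks, which the record leaves unsettled for A, C and E. Because record and names disagree, no list was assigned to an arm and rapamycin was not compared with untreated cells. Values are given list by list without a mean or a test.

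MeRIP-seq pulls down RNA fragments that carry N6-methyladenosine (m6A) with an antibody, and a peak marks a stretch where such fragments pile up over the input. The mark is known to be frequent near stop codons, in 3′ untranslated regions and in long internal exons. Autophagy starts when the ULK1 kinase complex, which mTORC1 restrains in fed cells, is released. It then activates a lipid kinase complex that makes phosphatidylinositol 3-phosphate, while vesicles with ATG9A and the lipid transfer protein ATG2A feed the growing membrane and WIPI2 reads the new lipid. The deposited lists give each interval a score on a scale that the sources used here do not state. Its lowest value lay between 70.0 and 70.08 in every list, and many intervals stand at 3100. Scores were therefore turned into percentiles within a list, ties sharing their mean percentile, and were not compared in size between lists.

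WIPI2 was the gene with 1 region in all 6 lists, and ULK1 and RB1CC1 each had 1 region in 5. These 3 regions were wide and supplied 16 of the 39 intervals. ATG14 had the most regions, 4, none in more than 4 lists. BECN1, ATG2A and ATG9A each had a single region, which was absent from lists D, E and F. Numbered from the gene start, regions 1 and 2 of RB1CC1 and region 3 of ATG14 were absent from them too. The share of all regions of the series absent from D, E and F was not computed, so this absence is not read as a trait of these genes. Of all joined regions of the series, 8.30% were in all 6 lists, against 1 of the 13 here. Regions in 5 or 6 lists numbered 3 of 13, with 16.2% over the series, and regions in 3 or more lists numbered 7 of 13, with 43.2% over the series. Regions in a single list numbered 2 of 13, with 36.9% over the series. Each region is 7.69% of the 13, so these counts rest on few regions and are not read as setting the genes apart. Of these shares, that in a single list, 15.4%, was the furthest from the series, and the difference was not tested.

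**Figure D1:**
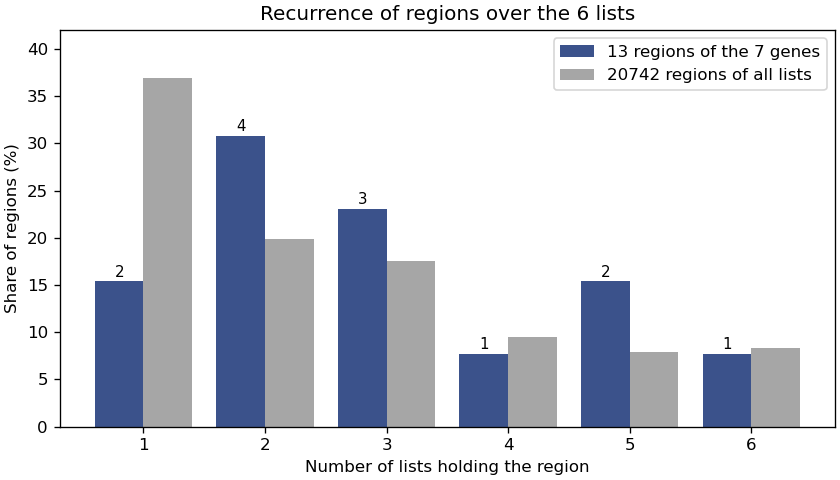
Share of regions (vertical axis, %) by the number of lists that hold them (horizontal axis), in blue for the 13 regions of the 7 genes and in grey for the 20742 regions of the series; digits above the blue bars count regions. The blue bars rest on 1 to 4 regions each, and 1 region of the 7 genes was in all 6 lists.

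The lists held unequal numbers of these intervals. Lists A and B held 10 each and touched all 7 genes, list C held 7 in 5 genes, list D 6 in 4 genes, and lists E and F 3 each in 3 genes. As a share of each list this was 0.0831% of the 12040 intervals of A, 0.0671% of the 14908 of B, 0.0570% of the 12288 of C, 0.124% of the 4837 of D, 0.0662% of the 4530 of E and 0.0612% of the 4899 of F. The lower counts in D, E and F thus went with shorter lists, and the share of list D was the highest. How deeply the libraries behind each list were sequenced is unknown.

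**Figure D2:**
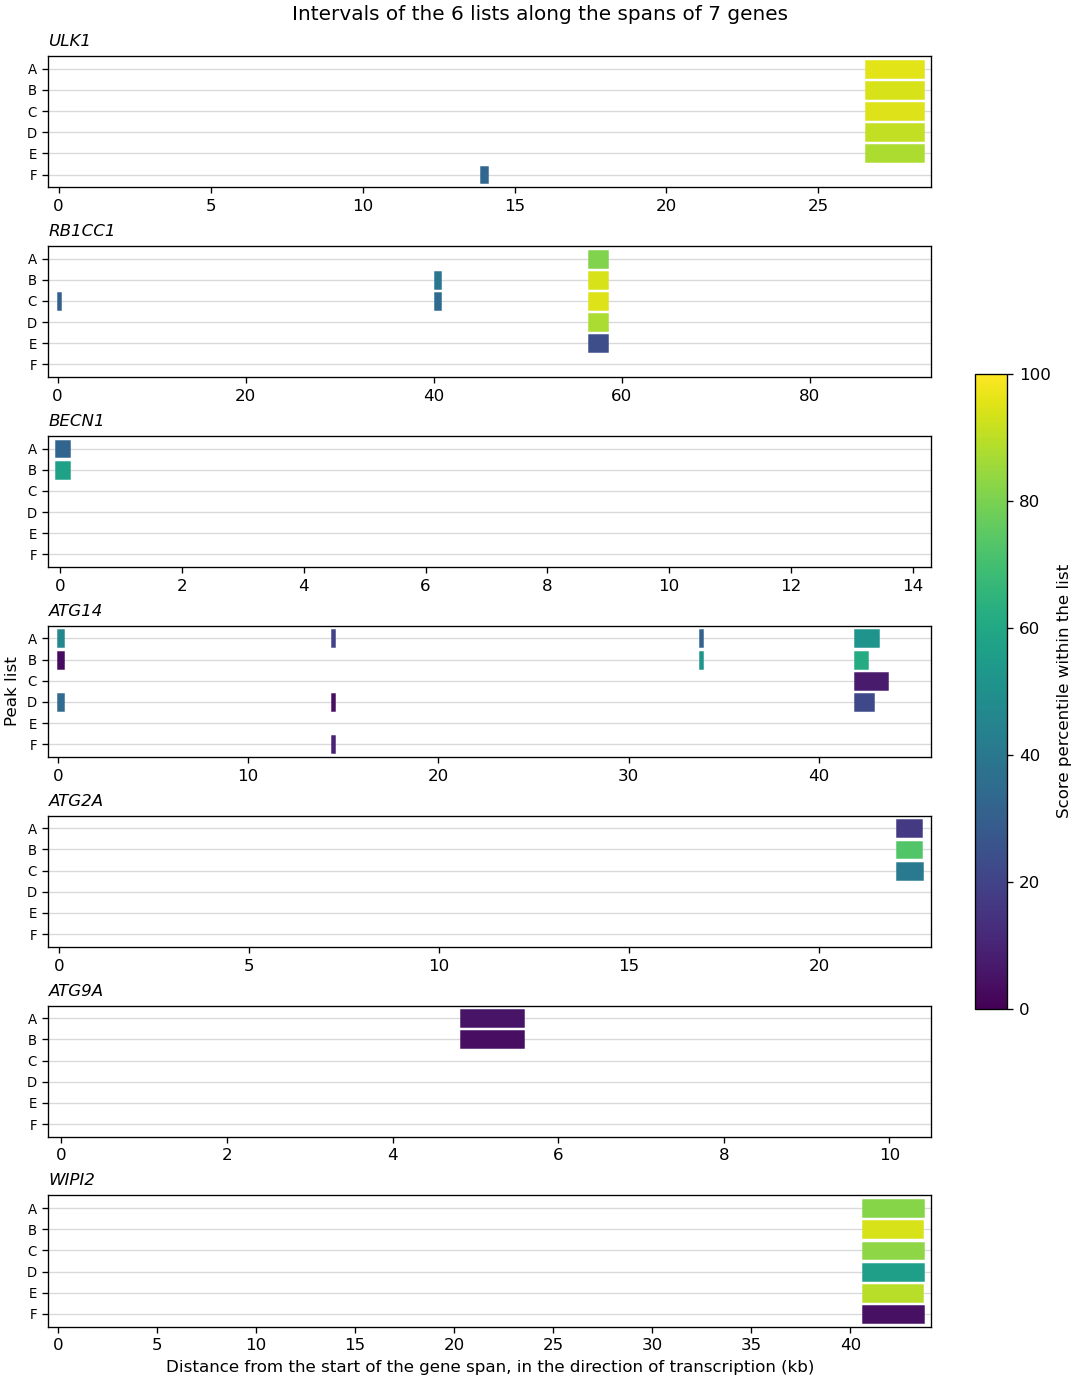
Intervals of lists A to F (rows) along each gene, drawn to scale with an outline that keeps narrow ones visible; the horizontal axis is the distance in kb from the start of the gene span in the direction of transcription, and colour is the score percentile within the list. ULK1, WIPI2, ATG2A and ATG14 have intervals at or near the gene end, and BECN1, ATG14 and RB1CC1 have intervals at the gene start.

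By position, 4 of the 13 regions came within 2000 bp of the end of the gene span, and they supplied 18 of the 39 intervals. They lay in ULK1, WIPI2, ATG2A and ATG14. Another 3 regions, in BECN1, ATG14 and RB1CC1, came within 100 bp of the gene start and supplied 6 intervals. The other 6 regions lay inside the spans and supplied 15 intervals. The deposited lists name no exon, and no annotation of hg19 was used, so whether an interval is exonic, intronic or in a UTR was not analysed here. The 2 distance limits were chosen after the positions had been seen. The same shares over other genes were not computed, so no enrichment at either end can be read from these counts.

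ULK1 encodes the kinase that starts autophagy and that mTORC1 phosphorylates. Its main region was chr12:132405851-132407707 on the plus strand, 1857 bp wide, and it ended on the last base of the gene span. List A scored it at 2716, lists B and C at 3100, list D at 1054 and list E at 769.8. These are high values within each list, at the 95.5th, 93.9th, 94.8th, 90.8th and 87.5th percentile in that order, and both boundaries were the same in all 5 lists. By the median of its percentiles, 93.9, it was first among the 13 regions. List F had no interval there. Its ULK1 interval was chr12:132393164-132393362, 199 bp wide and 13885 bp from the gene start, with a score of 118.2 at the 32.6th percentile, and no other list held it. ULK1 was therefore marked in 6 lists, but at 2 places that do not overlap.

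RB1CC1, also called FIP200, is the large scaffold protein of the ULK1 complex. Its main region was not at a gene end: chr8:53568568-53570468 on the minus strand, 1901 bp wide, began 56558 bp from the gene start and stopped 33550 bp before the gene end. List A scored it at 851.9, lists B and C at 3100, list D at 817.3 and list E at 102.1, with equal boundaries in all of them. Lists A to D placed it at percentiles of 81.1, 93.9, 94.8 and 87.4. List E placed it at 23.7, so list E held the region at the same boundaries but low among its own scores. List F held nothing in this gene.

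Another RB1CC1 region, chr8:53586405-53586834 and 430 bp wide, stood in B with a score of 242.6 and in C with 200.5. The remaining one, chr8:53626801-53627026 and 226 bp wide, was in C alone with a score of 171.8, and its outer boundary was the first base of the gene span. Both had percentiles between 30.4 and 39.1, well under those of the 1901 bp region in the same lists. Over any list the 3 regions covered 2.78% of the RB1CC1 span.

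**Figure D3:**
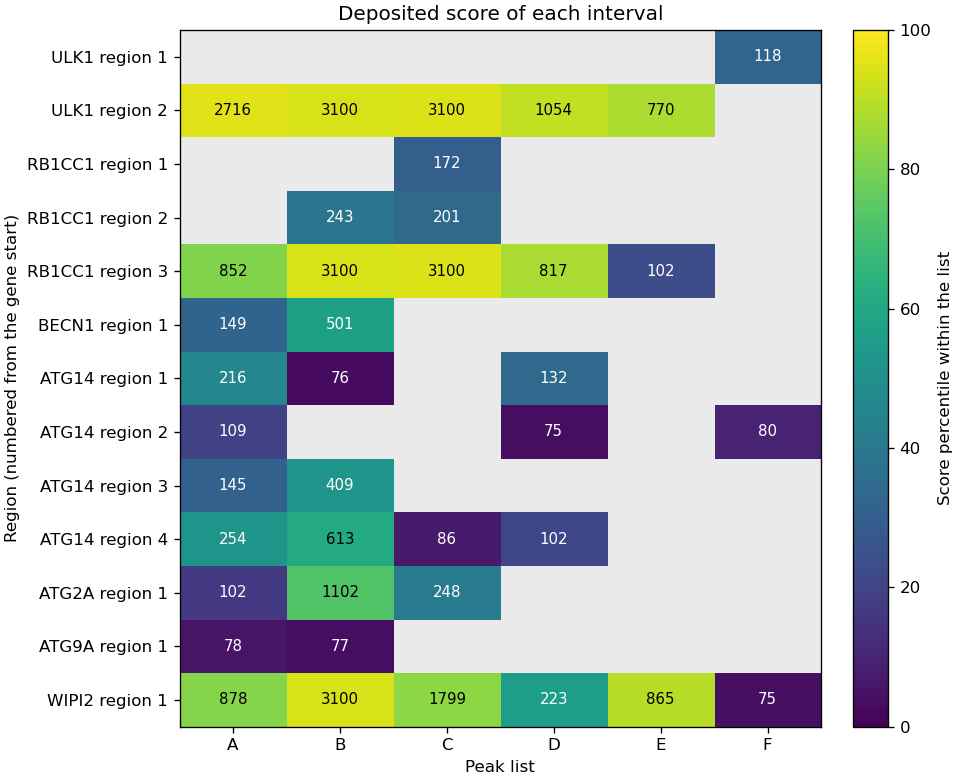
Deposited score (number in each tile) of the 13 regions (rows, numbered within each gene from its start) in lists A to F (columns); colour is the score percentile within the list and pale grey means no interval. The ULK1 region 2, RB1CC1 region 3 and WIPI2 rows are filled in 5, 5 and 6 lists, and the ATG9A row holds values of 78 and 77.

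Downstream of the ULK1 complex acts the lipid kinase complex of which BECN1 (beclin 1) and ATG14 are subunits, ATG14 being the one that directs it to autophagy. BECN1 had 1 region, at its start: chr17:40976173-40976379 in A, 207 bp wide with a score of 148.6, and chr17:40976173-40976376 in B, 204 bp wide with a score of 501.5. Their percentiles were 32.2 and 56.8. Both intervals reached past the start of the span used for the gene, by 69 bp in A and 66 bp in B. No list held an interval in the rest of BECN1, its gene end included.

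ATG14 had intervals in every list but E and 12 in all, the most of the 7 genes. The region at its start was in A, B and D. In A it was chr14:55878320-55878564 with a score of 215.8, in B it ended at 55878568 with 75.95, and in D at 55878576, the first base of the span in the direction of transcription, with 132.0. The widths were 245, 249 and 257 bp. All 3 shared their boundary inside the gene and differed by up to 12 bp at the outer one. Because these intervals lie at the gene start, reaching its first base in D and stopping 12 bp short of it in A and 8 bp short in B, the 50 bases that follow the RefSeq start of ATG14 are shown (GRCh38.p14, chr14:55411781-55411830, minus strand, 5′ to 3′). Capitals mark the first ATG, which has 8 bases before it and no stop codon among the 14 whole codons that follow in frame, itself included.
ATG14: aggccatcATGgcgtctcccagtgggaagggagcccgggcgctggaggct
The stretch holds no GGAC, the core of the sequence in which m6A is most often found, on either strand, whereas 18.9% of all 35116 RefSeq start windows of this length hold it on the transcribed strand and 17.6% on the other. Since the 2 builds were not aligned, whether the hg19 intervals begin at this RefSeq start was not analysed here, and no match says only that these letters are not in this window. The window of BECN1, which also has intervals at its start, holds GGAC on the opposite strand only. Whether the hg19 intervals of BECN1 cover any of this window was not analysed either.

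At the other end of ATG14, a region between 55834965 and 55836643 was in A, B, C and D, 1855 bp from the gene end at its nearest. Here the boundary toward the gene start was the same in the 4 lists, and the boundary toward the gene end differed in each. Lists A to D gave it widths of 1181, 604, 1679 and 946 bp, and scores of 253.6, 613.4, 85.67 and 102.2. Within their own lists these scores stood at the 51.8th, 61.3rd, 7.12th and 21.7th percentile, so the narrowest interval ranked highest in its list and the widest ranked lowest.

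Inside ATG14 lay the 2 narrowest of the 13 regions. A 63 bp interval, chr14:55864090-55864152, was in A, D and F with scores of 109.3, 75.42 and 80.03, none above the 19.9th percentile. A 91 bp interval, chr14:55844702-55844792, was in A with 144.7 and in B with 409.3. Boundaries were identical in each list that held them. They are the only intervals of the 7 genes under 100 bp, 5 in number. The 63 bp region was also the only one shared by list F and another list apart from that of WIPI2.

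ATG9A and ATG2A supply membrane: ATG9A is a multispanning protein of small vesicles and moves lipids between the leaflets of a membrane, and ATG2A passes lipids from the endoplasmic reticulum to the growing membrane. The ATG9A region, chr2:220088828-220089576 on the minus strand, was 749 bp wide and near the middle of the span, 4824 bp from its start and 4828 bp from its end. Its score was 77.71 in A and 77.32 in B, at the 5.24th and 3.78th percentile. Both values stood just above the lowest score of the lists. It was the weakest of the 13 regions by the median of its percentiles.

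ATG2A had 1 region at its end, in lists A, B and C. The interval was chr11:64662047-64662681 in A, with a start of 64662051 in B and of 64662004 in C, on the minus strand. It was 635, 631 and 678 bp wide, and its nearest edge lay 50, 54 and 7 bp from the end of the span. List A scored it at 101.9, list B at 1102 and list C at 248.0. Within their lists these stood at the 16.9th, 73.0th and 40.9th percentile, although the intervals share their inner boundary. No interval lay in the remaining part of the gene.

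WIPI2 binds phosphatidylinositol 3-phosphate and brings in the machinery that attaches LC3 to the membrane. Its only region, chr7:5270466-5273486 on the plus strand, was in all 6 lists and was the widest of the 13 at 3021 bp. It was 3021 bp in A, C, D and F, where it ended on the last base of the span, 3008 bp in B and 2982 bp in E. The inner boundary was the same in every list. Lists A to F scored it at 877.5, 3100, 1799, 222.7, 864.8 and 74.80. They placed it at percentiles of 81.7, 93.9, 82.9, 56.0, 89.1 and 4.24. In F the region thus stood close to the lowest score of that list, although nothing in its position or width differed from A, C and D.

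The order of the genes by their highest score changed from list to list. ULK1 was first in A, D and F. WIPI2 was first in E, with ULK1 next and RB1CC1 well below both. ULK1, RB1CC1 and WIPI2 were tied at 3100 in B, as were ULK1 and RB1CC1 in C. In lists A to E, no gene outside these 3 had an interval scored above any of their highest. In F the order was ULK1 with 118.2, ATG14 with 80.03 and WIPI2 with 74.80. Of the 39 intervals, 5 reached 3100, 3 of 10 in B and 2 of 7 in C, where 11.8% and 10.0% of the whole lists did. None did in A, D, E and F, where the shares of the lists were 3.74%, 1.47%, 1.57% and 1.10%. Below a score of 80 lay 5 of the 39, against 6.16% of all intervals: those of ATG9A in A and B, ATG14 in B and D, and WIPI2 in F.

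**Figure D4:**
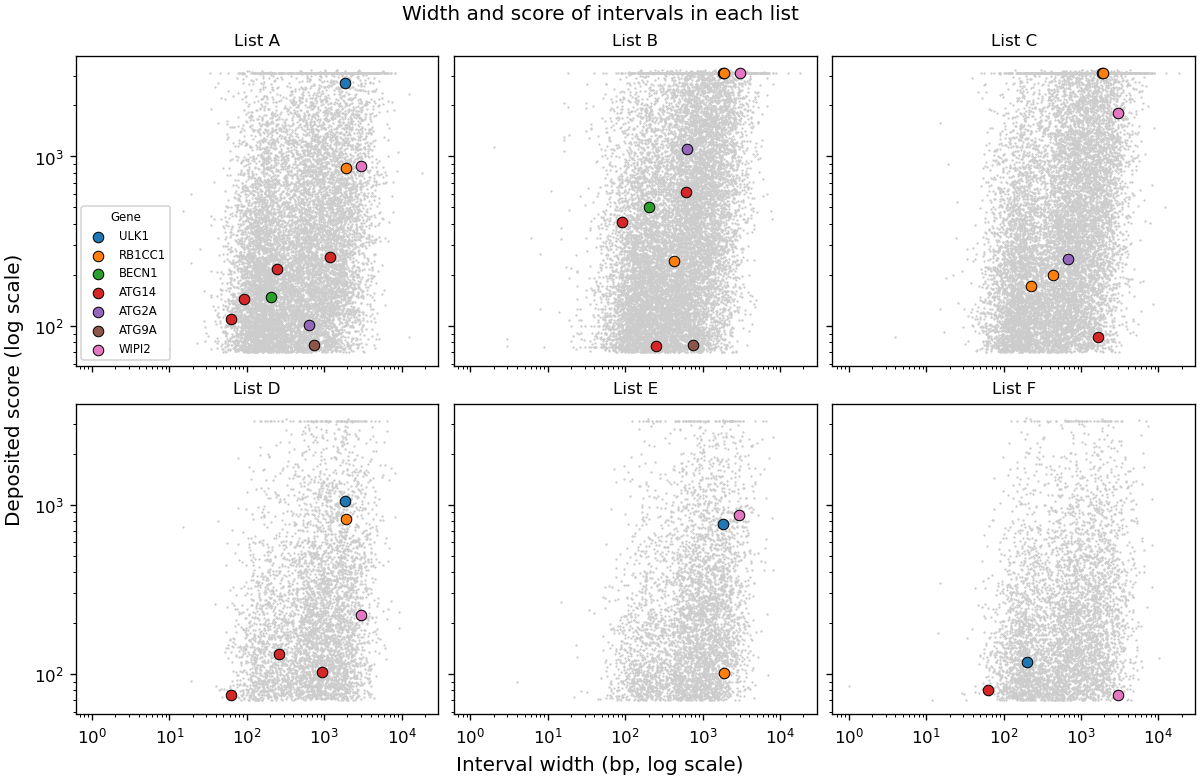
Width (horizontal axis, bp, log scale) against deposited score (vertical axis, log scale) in each list, with all intervals of the list in grey and those of the 7 genes as coloured points. The points of ULK1, RB1CC1 and WIPI2 with widths from 1857 to 3021 bp lie high in lists A, B and C, and in list F the WIPI2 point lies near the lowest score.

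In width, 16 of the 39 intervals were over 1800 bp, against 14.2% of all intervals. These 16 are the same 3 regions of ULK1, RB1CC1 and WIPI2 counted once per list. Taken as regions, the 13 had a median width of 430 bp, and all regions of the series had 418 bp. In their scores, 19 of the 39 were at or above the median of their own list, 4 of 10 in A, 7 of 10 in B, 3 of 7 in C, 3 of 6 in D, 2 of 3 in E and 0 of 3 in F. The intervals of these genes were therefore spread over the whole range of scores.

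Boundaries were shared between lists about as often as over the series, where the shares are taken over the 12881 regions of 2 or more lists with 1 interval per list. Of the 11 regions in 2 or more lists, 6 had both boundaries equal in each list that held them, where the share over the series was 58.3%, and all 11 had at least 1 boundary equal, where it was 94.8%. The 5 regions with 1 variable boundary were those at a gene start or near a gene end. In ATG2A, WIPI2 and the last region of ATG14 the boundary toward the gene start was fixed. In BECN1 and the first region of ATG14 the boundary toward the gene end was fixed. In each of the 5 the variable boundary was thus the one facing the nearer end of the gene. How often this holds over the series was not computed, so it is not read as a trait of these genes. The main region of ULK1, which also lay at the gene end, had no variable boundary.

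Peak names carry a number that rose along the chromosome for 100% of neighbouring intervals in every list, and numbers missing from a list are read here as calls that it does not hold. Between the 2 RB1CC1 intervals of B no number was missing, and between the first and last of C 2 were. Between the first and last ATG14 interval, 5 numbers were missing in A, 4 in B and 12 in D, on either strand. On this reading ATG14 had calls inside its span that these lists do not hold. This is not particular to ATG14. Numbers ran up to 112236 in A, 147164 in B and 432460 in D, where the lists hold 12040, 14908 and 4837 intervals.

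On the same reading the numbers bound what a gene without an interval could have had. For BECN1 in list C, 3 numbers were missing between the nearest intervals on both sides, which lay 12.0 and 26.9 kb from the span. For ATG9A in list C it was 2. In D, E and F the numbers missing around BECN1 were 84, 75 and 85, around ATG2A 72, 45 and 78, and around ATG9A 59, 247 and 25. The nearest intervals there lay from 15.8 kb (ATG2A in F) to 574 kb (ATG9A in E) from the span. Many of these numbers may therefore belong outside the gene, and how many lie inside it is unknown. For these genes the lack of an interval in D, E or F therefore does not show that no call was made.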

How the data were processed

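H460 RNA was examined by MeRIP-seq, and the files used were 6 peak lists in BED layout. The submitters' processing notes name HISAT2 2.0.4 and build hg19. Peak names have the default MACS form, per the file contents. The sources used here do not give the caller's settings. The record ties each list to 1 library, in conflict with the list names, and does not say which IP and input were set against each other. The score, deposited as 1 number for each peak on an unstated scale, was used within lists, and some counts used the same score limit in every list. No read counts were used, so depth is unknown and no interval is given.

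Gene spans came with the definition of the gene set, and these members and all summaries were chosen with earlier results of these data known. Every joined region of the genes is described. Membership, joining (overlap of 1 bp or more, same strand), percentiles and peak numbers were computed in Python 3.11.15 with pandas 2.3.3. The joining code was tested on simulated data, 1000 regions, and passed 5 of 5 checks. No test was run. RefSeq start windows matched 6 of 7 genes, all but RB1CC1. Other initiation genes and genes of like pattern were not analysed, for want of an annotation of the build. Alternatives were strand, overlap, span, joining distance, score minimum, list length and each list left out.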

Additional observations from a re-analysis of the deposited data

How the results depend on the processing

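Counting either strand, joining intervals up to 100 bp apart, extending each span by 5 kb and asking for 50% of an interval within the span left the 39 intervals, 13 regions and 1 region in all lists as they were, wherever each was computed. When only intervals with at least the pooled median score were used, the counts became 17 intervals, 7 regions and 0 in all lists, since weak intervals are removed by construction. The regions kept were the main ones of ULK1 (5 lists), RB1CC1 (4) and WIPI2 (4), and in list B those of BECN1, ATG2A and 2 of ATG14. The pooled median was the same limit for every list, whereas list medians ran from 168.1 in F to 371.2 in B. With every list at the 4530 best-scored intervals the counts became 20 intervals, 8 regions and 0 in all lists, and BECN1 and ATG9A had none. Leaving out 1 list at a time, regions in any list numbered 12 to 13 and regions in all remaining lists 1 to 3, the 3 being without list F, when ULK1 and RB1CC1 joined WIPI2. No paired analysis was possible because the values come from no test and no list was assigned to an arm. Whether a region missing from a list was absent or undetected cannot be read from these data.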

Other observations

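Within 5 kb of the 7 spans, 1 further interval was found on either strand. It lay in list B on the plus strand, chr2:220094607-220095072, 207 bp beyond the span of ATG9A, which is on the minus strand, and was 466 bp wide with a score of 140.1.

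Over the 13 regions, lists A and B shared 9 of their 10 each. All 3 regions of list E were in A, B, C and D. Of the 3 regions of list F, 2 were in A, 2 in D and 1 each in B, C and E. List F was thus the one list that held the ULK1 gene without its main region. The same overlaps over all regions of the series were not computed, and the lists differ in length. How alike the lists are is therefore not read from these counts.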
